A study of Mus musculus with 6 samples.

Results

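Endoplasmic reticulum (ER) folding and unfolded protein response genes were followed in the hearts of mice labelled as lacking Hspa4, a gene for an Hsp110-type chaperone of the cytosol. The group holds 35 genes, taken by symbol from the array's probe-to-gene table, among 20239 named genes in all. Each of the 35 had 1 probe set, and no filter on low values was applied, so all 35 were tested. Every animal was labelled as a male of the 129/Sv background, 3.5 weeks old, and both groups were untreated as far as the labels say. RNA came from whole heart ventricles and was read on Affymetrix Mouse Gene 1.0 ST arrays, 3 labelled Hspa4-/- and 3 labelled Hspa4+/+ (wild type). The arrays are called KO1 to KO3 and WT1 to WT3 here, after their labels and replicate numbers. Each array was taken as 1 mouse, since the labels name 3 mice per genotype. The construction of the mutant allele was not stated in the labels. The comparison asks how the chaperones and stress sensors of the ER stand in the young ventricle when a cytosolic chaperone is lost.

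Proteins that enter the ER are held by the Hsp70-type chaperone BiP (Hspa5) and the Hsp90-type chaperone Grp94 (Hsp90b1). Sugar-bearing chains are also held by the lectins calnexin and calreticulin, and disulfide bonds are made and shuffled by protein disulfide isomerases and their oxidase. Chains that fail to fold are sent back to the cytosol and degraded by the proteasome, a route called ER-associated degradation. A load of unfolded protein is read by the sensors IRE1, ATF6 and PERK. IRE1 (Ern1) splices Xbp1 mRNA, ATF6 is cut to release a transcription factor, and PERK slows translation while favouring that of Atf4, whose product turns on Ddit3, Trib3, Asns and Chac1. In the heart muscle cell this reticulum also stores the calcium that drives each beat.

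The promoters of these genes are shown first because a known sequence, the ER stress element, links many of them. The windows come from RefSeq (GRCm38.p6) and reach from 250 bases before to 50 bases after each gene's start. A window was found for 32 of the 35 genes, and Atf6, Derl1 and Manf are the others. The element was searched on both strands as CCAAT and CCACG with 9 bases of any kind between them. It stood in 8 of the 32 genes (25%): Hspa5, Hsp90b1, Calr, Canx, Pdia6, Creld2, Derl3 and Syvn1. Over all RefSeq windows of this length it stood in 39 of 32851, or 0.119%. These belong to 37 of 27025 genes with a window, or 0.137%. The 250 bases before the start of Hspa5 hold it on the gene's own strand, printed 5′ to 3′ with its fixed letters in capitals (chr2:34771840-34772089, plus strand).
Hspa5: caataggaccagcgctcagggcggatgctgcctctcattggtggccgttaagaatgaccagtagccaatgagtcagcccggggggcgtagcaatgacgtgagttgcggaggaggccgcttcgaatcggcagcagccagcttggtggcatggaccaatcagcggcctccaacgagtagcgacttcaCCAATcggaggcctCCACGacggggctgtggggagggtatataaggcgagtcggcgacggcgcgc

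Shorter stretches show the same element in the other 7 genes, read along each gene's strand and with its fixed letters in capitals. Where the element faces the other way, its letters appear as CGTGG and ATTGG. Hsp90b1 holds it on both strands, and the stretch shown for it is the one nearer the start. The stretches lie at chr10:86705513-86705571 (Hsp90b1, minus strand), chr11:50325780-50325838 (Canx, minus), chr8:84847055-84847113 (Calr, minus), chr12:17266471-17266529 (Pdia6, plus), chr15:88819500-88819558 (Creld2, plus), chr10:75893222-75893280 (Derl3, plus) and chr19:6046512-6046570 (Syvn1, plus).
Hsp90b1: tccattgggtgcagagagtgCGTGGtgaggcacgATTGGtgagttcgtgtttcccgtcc
Canx: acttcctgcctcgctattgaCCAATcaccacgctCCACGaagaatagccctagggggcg
Calr: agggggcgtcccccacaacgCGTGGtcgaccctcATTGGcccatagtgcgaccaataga
Pdia6: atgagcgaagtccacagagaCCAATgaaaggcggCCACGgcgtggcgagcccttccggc
Creld2: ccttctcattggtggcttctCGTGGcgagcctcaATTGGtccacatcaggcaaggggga
Derl3: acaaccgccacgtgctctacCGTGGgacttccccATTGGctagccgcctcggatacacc
Syvn1: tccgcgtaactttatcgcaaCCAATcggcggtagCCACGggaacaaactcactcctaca

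A sequence read by ATF4 with its partners, searched as TGATGNAA on both strands, stood in 4 of the 32 genes (12.5%): Asns, Chac1, Trib3 and Herpud1. It stood in 4.51% of all genes with a window and in 3.97% of all windows. The shorter ER stress element II was searched on both strands as ATTGG and CCACG with 1 base of any kind between them. It stood in Herpud1 alone among the 32 genes (3.12%). Of all genes with a window 0.0444% held it, and of all windows 0.0365%. The unfolded protein response element TGACGTGG, on either strand, stood in 0 of the 32 genes. It stood in 0.714% of all genes with a window and in 0.676% of all windows. The 0 says only that these letters are not in the windows of the 32. The matches named in this paragraph do not overlap each other. The stretches below show the composite site in Asns (chr6:7693210-7693252, minus strand) and Chac1 (chr2:119351029-119351076, plus) and the second element in Herpud1 (chr8:94386357-94386407, plus).
Asns: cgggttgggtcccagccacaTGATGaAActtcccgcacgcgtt
Chac1: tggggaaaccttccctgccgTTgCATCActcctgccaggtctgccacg
Herpud1: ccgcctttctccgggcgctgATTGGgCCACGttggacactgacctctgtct

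On the array labelled KO1 the Hspa4 level goes against the label. Hspa4 read 9.33 there, 6.63 on KO2 and 6.75 on KO3, against 9.48 to 9.74 in wild type. The Hspa4 difference was −2.01 on 6 arrays (SE 0.58; limma, adjusted p = 0.263) and −2.89 on the 5 without KO1 (SE 0.10; limma, adjusted p = 9.37e-06). The female-specific RNA Xist was also high on the array labelled KO1 (7.68, with 5.51 to 5.69 on the other arrays), although all mice are labelled male. Main results are therefore given for all 6 arrays and for the 5 left without that array. Values given without the number of arrays are from all 6. Both forms share 5 arrays and are not independent. Ventricular muscle genes such as Myl2, Tnni3 and Myh6 read between 10.13 and 12.65 on all arrays. Of 9 cardiomyocyte markers 8 had a difference above 0 on 6 arrays (median 0.06), where 54.2% of all genes had one below 0. Of these 8, 4 were higher without overlap between the labels, where 6.08% of all genes were. The 4 include Myl2 (0.28; limma, adjusted p = 0.256), Tnni3 (0.23; limma, adjusted p = 0.274) and Ryr2 (0.06; limma, adjusted p = 0.814). The summed level of the 9 markers overlapped. The part of these markers in the ER values was not tested. Array means lay between 6.76 and 6.77 on the log2 scale. The array labelled KO1 and WT3 had higher medians (6.48 and 6.47) than the other arrays (6.42 to 6.44). Their SDs were smaller (1.20 and 1.19, against 1.23 to 1.27). With at most 3 arrays a label, precision is limited.

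None of the 35 genes passed the test across all genes in either form (limma, Benjamini-Hochberg adjusted p under 0.05). With 6 arrays 0% of all genes passed and the members' adjusted p started at 0.276, and with 5 arrays 0.44% of all genes passed and the members' adjusted p started at 0.125. At an unadjusted p under 0.05 on 6 arrays, 6 members were lower (17.1%, against 5.53% of all genes) and 0 were higher (against 5.64%). The 6 were Hspa5, Hsp90b1, Canx, Pdia4, Ero1a and Creld2. On 5 arrays 5 members were lower at that level (14.3%, against 6.36% of all genes) and 1 was higher (against 8.55%). Pdia4 was no longer among the lower genes, and P4hb was the higher one. With WT2 also left out, Canx (−0.35; limma, adjusted p = 0.0480) and Ero1a (−0.41; limma, adjusted p = 0.0282) passed, where 4.32% of all genes did.

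In 5 lower members the 2 labels had no overlap on 6 arrays (14.3%, against 9.07% of all genes). The same held for 1 higher member (2.86%, against 6.08%), and 15.1% of all genes had no overlap in either direction. On 5 arrays the counts were 5 lower (14.3%, against 18.9%) and 3 higher (8.57%, against 14.4%), so both shares were then under the background. In either direction 33.3% of all genes had no overlap on 5 arrays. After quantile normalization of the deposited values the counts were 9 lower and 3 higher on 6 arrays (8.64% and 7.59% of all genes) and 12 lower and 4 higher on 5 (15.3% and 15% of all genes). The median difference over the 35 genes was −0.06 on 6 arrays and −0.05 on 5, beside −0.01 and −0.02 over all genes tested. Without KO2 the 6-array median was −0.03.

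Signs of the differences varied by role. The 12 genes of folding (chaperones, lectins with their glucosyltransferase, and disulfide enzymes) were pooled from their roles after the values were seen. Of these 12, 11 had a difference below 0 on 6 arrays, where 54.2% of all genes did. On 5 arrays 10 did, where 56.7% of all genes did. Their median was −0.23 on 6 arrays and −0.22 on 5. In the remaining 23 genes, 11 had a difference below 0 and 12 above on 6 arrays, with a median of 0.01 on 6 arrays and −0.02 on 5. The 11 below 0 include Ssr1 and all 3 members listed as targets of ATF6 and XBP1. The folding median leaned on single arrays: on 6 arrays it was −0.14 without WT1 and −0.15 without KO2, and on 5 arrays it was −0.11 without KO2 and −0.14 without WT1. In bulk tissue, less RNA per cell and fewer cells of a type cannot be told apart.

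**Figure D1:**
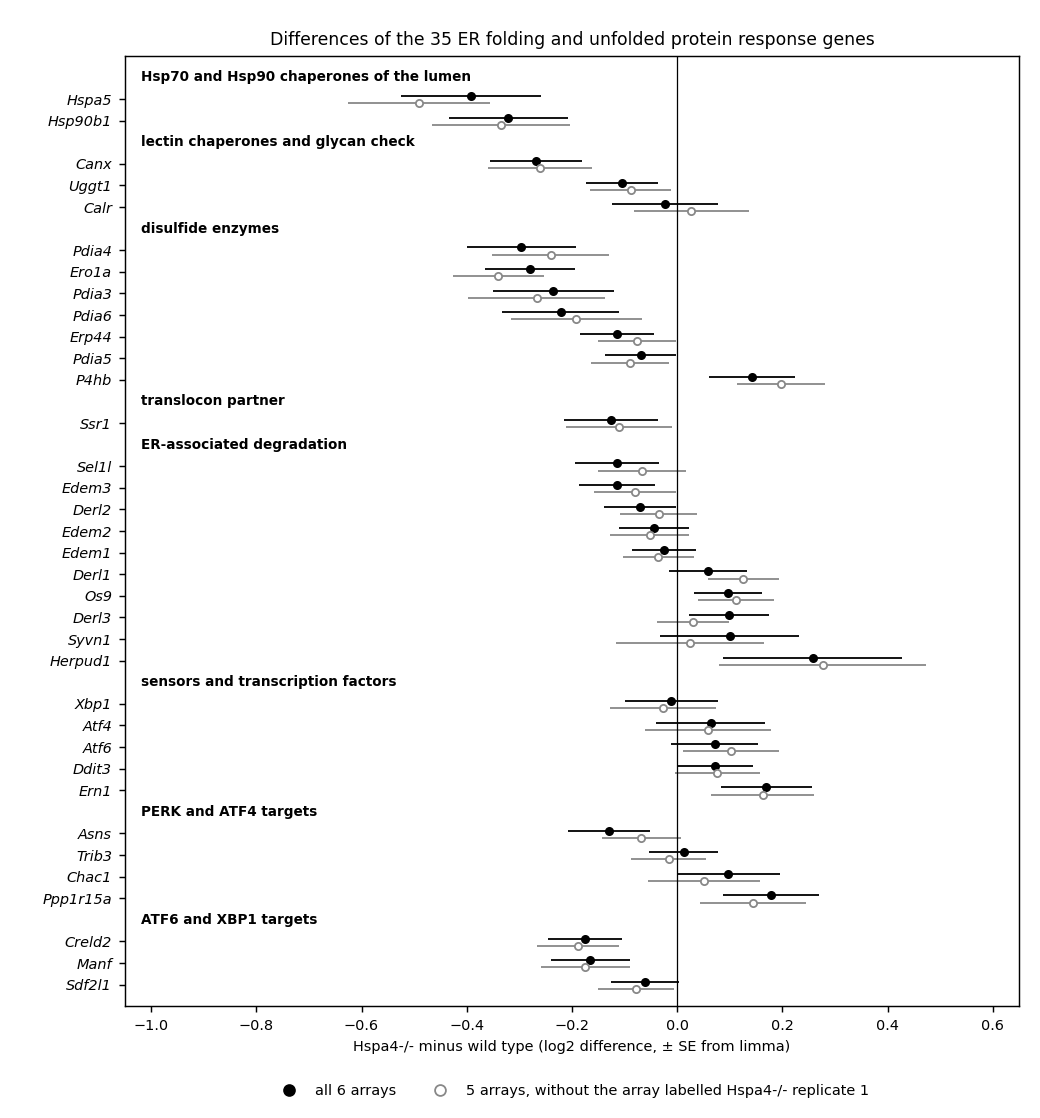
Log2 difference (arrays labelled Hspa4-/- minus wild type) for each of the 35 genes, grouped by role, with limma's SE as bars. Filled points use all 6 arrays and open points the 5 left without the array labelled KO1; 11 of the 12 folding genes lie left of 0 on 6 arrays, while the other roles except the ATF6 and XBP1 targets and Ssr1 hold points on both sides.

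Hspa5, the chaperone BiP that also keeps the 3 sensors inactive, was the lowest member relative to wild type. It read 10.06, 9.52 and 10.00 on KO1, KO2 and KO3 and 10.35, 10.12 and 10.28 on WT1, WT2 and WT3. All 3 arrays labelled Hspa4-/- lay below all wild-type arrays, KO2 by far the most. The group levels were 9.86 ± 0.29 and 10.25 ± 0.12 (SD, n = 3 each), which is 1.31-fold lower (log2 difference −0.39, SE 0.13; limma, adjusted p = 0.315). On 5 arrays the difference was −0.49 (SE 0.13; limma, adjusted p = 0.150), and without KO2 it was −0.22 on 6 arrays and −0.25 on 5. By exact permutation (two-sided) p was 0.1 in both forms, the smallest that 3 against 3 or 2 against 3 arrays allow.

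Hsp90b1, the Hsp90 of the ER lumen with the element on both strands of its promoter, differed in the same direction. It read 9.98, 9.80 and 10.07 on KO1 to KO3 and 10.48, 10.04 and 10.29 on WT1 to WT3. The groups overlapped because WT2 lay just below KO3, while WT1 was the highest of all. The difference was −0.32 (SE 0.11; limma, adjusted p = 0.335) on 6 arrays and −0.34 (SE 0.13; limma, adjusted p = 0.279) on 5.

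Both lectin chaperones hold glycoproteins while they fold. Calnexin (Canx), bound to the ER membrane, read 10.52, 10.48 and 10.61 against 10.90, 10.62 and 10.90. The groups did not overlap, with KO3 just under WT2. Its difference was −0.27 (SE 0.09; limma, adjusted p = 0.295), or −0.26 on 5 arrays (SE 0.10; limma, adjusted p = 0.268). Calreticulin (Calr), its soluble relative, read 10.24, 10.24 and 10.54 against 10.38, 10.48 and 10.23. These values overlapped throughout, and the 95% interval of the difference, not adjusted for the number of genes, ran from −0.25 to 0.20. The calreticulin difference of −0.02 became 0.03 on 5 arrays. Whether the 2 lectins differ from each other in response was not tested.

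Uggt1, the glucosyltransferase that tags misfolded glycoproteins for another round with the lectins, read 8.43, 8.52 and 8.45 against 8.59, 8.64 and 8.48. KO2 lay above WT3, so the groups overlapped (difference −0.11, SE 0.07; limma, adjusted p = 0.638; on 5 arrays −0.09).

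Among the disulfide enzymes, Ero1a had the smallest p of all 35 genes. Ero1a is the oxidase that passes electrons from protein disulfide isomerase to oxygen. It read 8.78, 8.64 and 8.56 on KO1 to KO3 and 9.04, 8.81 and 8.98 on WT1 to WT3. The array labelled KO1 was the highest of its label and lay just under WT2. Ero1a was 1.21-fold lower (log2 difference −0.28, SE 0.09; limma, adjusted p = 0.276), and the difference was −0.34 on 5 arrays (SE 0.09; limma, adjusted p = 0.125).

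Pdia4, an isomerase with several thioredoxin-like active sites, read 7.53, 7.55 and 7.85 against 8.10, 7.85 and 7.87. KO3 nearly met WT2, while KO1 and KO2 lay well below. The difference was −0.30 (SE 0.10; limma, adjusted p = 0.324) on 6 arrays and −0.24 (SE 0.11; limma, adjusted p = 0.357) on 5, where it was −0.09 without KO2.

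P4hb stood above wild type. It encodes the founding protein disulfide isomerase, which is also the beta subunit of the collagen prolyl hydroxylase. It read 8.42, 8.48 and 8.70 against 8.42, 8.41 and 8.34. Every array labelled Hspa4-/- was above wild type, the array labelled KO1 by the least. Its difference was 0.14 (SE 0.08; limma, adjusted p = 0.580) on 6 arrays and 0.20 (SE 0.08; limma, adjusted p = 0.320) on 5. Without KO3 it was 0.06 on 6 arrays and 0.09 on 5. P4hb was the only member above wild type without overlap on 6 arrays.

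The other 4 disulfide enzymes were Pdia3, the partner of the lectins, Pdia5, Pdia6 and Erp44, which retrieves escaped oxidase and client proteins. Their differences ran from −0.24 (Pdia3) to −0.07 (Pdia5), their groups overlapped, and none had an unadjusted p under 0.05. Pdia3 stood at 10.69 on WT1 and between 10.03 and 10.32 on all other arrays.

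**Figure D2:**
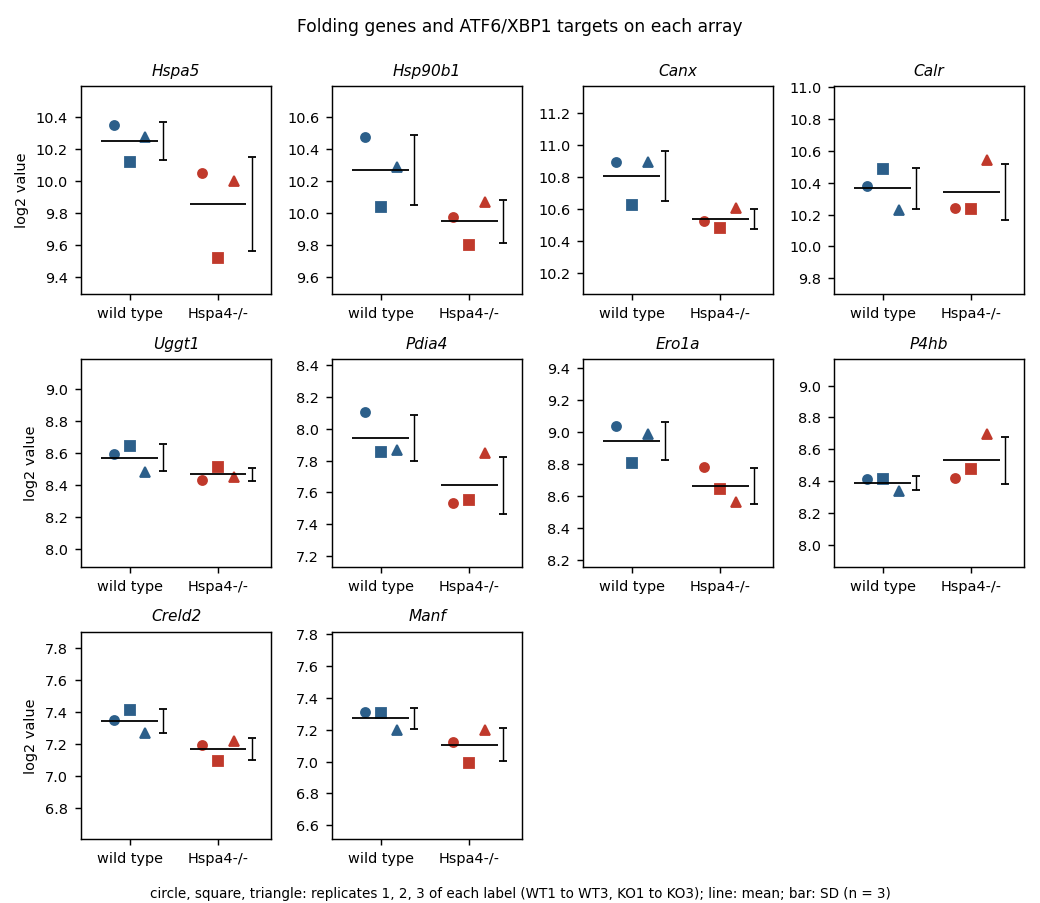
Log2 value on each array for 10 members, 8 of folding and the targets Creld2 and Manf, with replicates 1 to 3 as circle, square and triangle, the mean as a line and the SD (n = 3) as a bar. Hspa5, Canx, Pdia4, Ero1a and Creld2 lie below wild type on every array labelled Hspa4-/-, P4hb lies above, and Calr overlaps.

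The 3 members listed as targets of ATF6 and XBP1 all had differences below 0. Each member stood in a single role, and members of other roles also hold the ER stress element. Of the 8 with the element, 6 were below 0 on 6 arrays, while Derl3 and Syvn1 each stood at 0.10. Herpud1, which holds ER stress element II, stood at 0.26. Creld2, a secreted stress-induced protein whose promoter holds the ER stress element, read 7.20, 7.09 and 7.22 against 7.35, 7.41 and 7.27. Its groups did not overlap, and the difference was −0.18 (SE 0.07; limma, adjusted p = 0.396). On 5 arrays it was −0.19 (SE 0.08; limma, adjusted p = 0.309).

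Manf, a secreted survival factor kept in the ER until stress, read 7.13, 6.99 and 7.20 against 7.31, 7.30 and 7.20. KO3 lay just above WT3, and the difference was −0.17 (SE 0.07; limma, adjusted p = 0.454; on 5 arrays −0.18). Without KO2 it was −0.11 on 6 arrays and −0.07 on 5. Sdf2l1, a partner of BiP complexes, differed by −0.06 (SE 0.07; limma, adjusted p = 0.807; on 5 arrays −0.08). KO2 was its lowest array, as for Creld2 and Manf.

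The sensors and their transcription factors overlapped between the groups in all 5 genes and in both forms. Ern1, the gene of the sensor IRE1, read 7.67, 7.70 and 7.60 against 7.41, 7.67 and 7.39. WT2 lay with the arrays labelled Hspa4-/-, and WT1 and WT3 lay below. The difference was 0.17 (SE 0.09; limma, adjusted p = 0.510), and 0.16 on 5 arrays (SE 0.10; limma, adjusted p = 0.487).

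Xbp1 showed the smallest difference of the 5. It read 9.02, 8.89 and 9.04 against 8.88, 9.17 and 8.94, and the 95% interval of its difference ran from −0.21 to 0.19. The Xbp1 difference was −0.01 on 6 arrays and −0.03 on 5. A gene-level probe set gives 1 value for the gene, so spliced and unspliced Xbp1 were not told apart. Atf6 read 9.44, 9.61 and 9.46 against 9.33, 9.57 and 9.38 (difference 0.07, 95% interval −0.12 to 0.26, and 0.10 on 5 arrays). KO2 and WT2 were the highest of their groups for Atf6.

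Atf4, the factor made when PERK slows translation, read 7.14, 7.32 and 6.93 against 6.93, 7.16 and 7.11. Its arrays spread widely in both groups, and the 95% interval of the difference ran from −0.17 to 0.30. Ddit3, the gene of the death-linked factor CHOP, read 6.57, 6.66 and 6.52 against 6.46, 6.61 and 6.47. Its interval ran from −0.09 to 0.23. On 5 arrays the differences of Atf4 and Ddit3 were 0.06 and 0.08, beside 0.06 and 0.07 on 6. Atf4 is known to act mainly through its translation, which RNA levels do not read.

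Of the 4 targets of ATF4, none had an unadjusted p under 0.05. Ppp1r15a, which encodes the phosphatase subunit Gadd34 that ends the block of translation, read 6.78, 6.70 and 6.64 against 6.55, 6.68 and 6.34. Only KO3 lay under the highest wild-type array, WT2 (difference 0.18, SE 0.09; limma, adjusted p = 0.511; on 5 arrays 0.14). Without WT3 the Ppp1r15a difference was 0.09 on 6 arrays and 0.05 on 5. The asparagine synthetase gene Asns, whose composite site is printed above, read 6.95, 7.13 and 7.15 against 7.14, 7.30 and 7.17. Its array labelled KO1 was the lowest of all, and its difference was −0.13 (SE 0.08; limma, adjusted p = 0.604) on 6 arrays and −0.07 (SE 0.08; limma, adjusted p = 0.730) on 5. The pseudokinase gene Trib3 differed by 0.01 (SE 0.07) and the glutathione-degrading enzyme gene Chac1 by 0.10 (SE 0.10).

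The 10 genes of ER-associated degradation were split evenly, 5 below and 5 above 0, with differences from −0.11 (Sel1l) to 0.26 (Herpud1). Herpud1, a membrane protein that gathers the degradation complex, read 9.44, 9.86 and 9.13 against 9.10, 9.47 and 9.09. KO2 and WT2 were the highest of their groups, and KO3 lay with the low wild-type arrays. The difference of 0.26 (SE 0.17; limma, adjusted p = 0.646) was 0.07 without KO2, and on 5 arrays 0.28 became −0.09 without KO2.

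Edem3, which trims mannose from misfolded glycoproteins, read 7.84, 7.92 and 7.97 against 8.13, 7.98 and 7.96 (difference −0.11, SE 0.07; limma, adjusted p = 0.627; on 5 arrays −0.08). Without WT1 it was −0.06 on 6 arrays and −0.03 on 5. Os9, a lectin that hands glycoproteins to the degradation complex, read 7.73, 7.75 and 7.81 against 7.65, 7.73 and 7.61 (difference 0.10, SE 0.07; limma, adjusted p = 0.655; on 5 arrays 0.11). The array labelled KO1 lay just under WT2 for Os9, so the groups were apart only on 5 arrays.

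Derl1, a channel-forming protein of the membrane, read 7.51, 7.72 and 7.70 against 7.60, 7.60 and 7.54. Here the array labelled KO1 was the lowest of all 6 and the other 2 of its label the highest, so the difference went from 0.06 (SE 0.07) on 6 arrays to 0.13 (SE 0.07; limma, adjusted p = 0.431) on 5. The ubiquitin ligase gene Syvn1 and its partner Sel1l differed by 0.10 (SE 0.13) and −0.11 (SE 0.08), and Derl2, Derl3, Edem1 and Edem2 by −0.07 to 0.10. Ssr1, a subunit of the translocon-associated complex, read 8.64, 8.56 and 8.81 against 8.85, 8.66 and 8.89 (difference −0.13, SE 0.09; limma, adjusted p = 0.675; on 5 arrays −0.11).

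**Figure D3:**
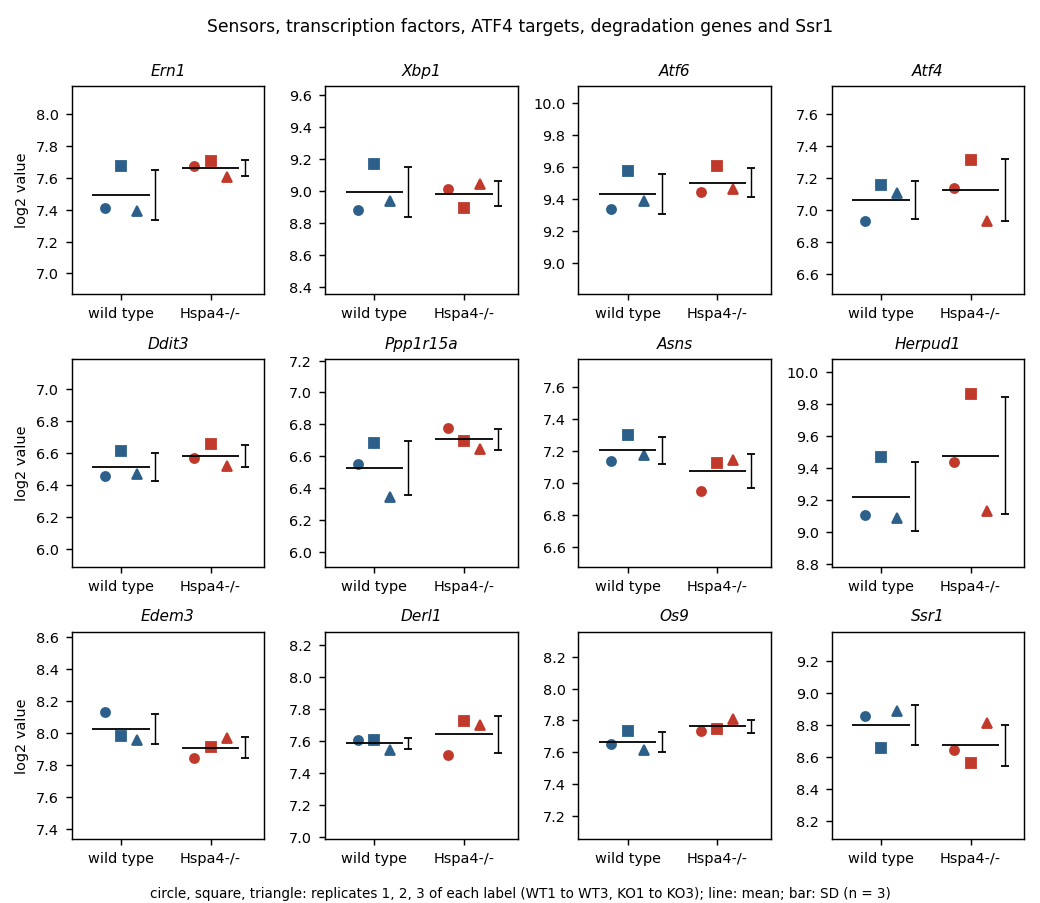
Log2 value on each array for 12 members: sensors, transcription factors, ATF4 targets, degradation genes and Ssr1, with replicates 1 to 3 as circle, square and triangle, the mean as a line and the SD (n = 3) as a bar. The groups overlap in every panel, and WT2 (square) is the highest wild-type array for Ern1, Xbp1, Atf6, Atf4, Ddit3, Ppp1r15a, Asns, Herpud1 and Os9.

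Single arrays differed in which role stood out. In the 12 folding genes WT1 was the highest wild-type array in 9, and KO2 was the lowest array of its label in 7. In the other 23 genes WT2 was the highest wild-type array in 14. Against the wild-type mean of each gene, the median of the folding genes was −0.18 on the array labelled KO1, −0.31 on KO2 and −0.11 on KO3, and 0.09, −0.08 and −0.04 on WT1, WT2 and WT3. On this measure each array labelled Hspa4-/- was under every wild-type array, with KO3 and WT2 the closest pair. The 12 genes were pooled after the values were seen, so this order is no separate support for a lower level. For the 5 sensors and factors WT2 stood at 0.14, and the arrays labelled KO1, KO2 and KO3 stood at 0.06, 0.17 and 0.03.

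**Figure D4:**
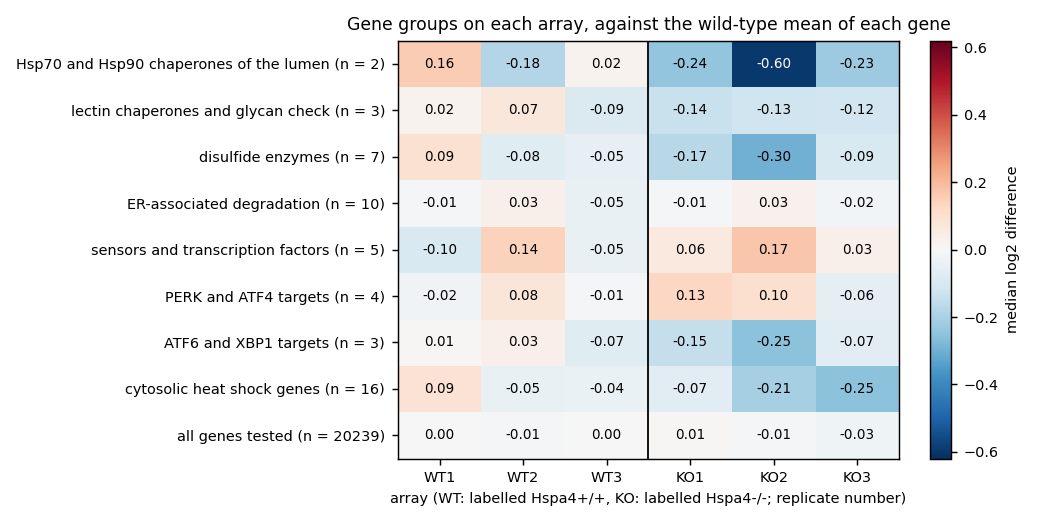
Median log2 difference from the wild-type mean of each gene, by role (rows) and array (columns), with the number of genes in brackets and the color scale in log2 units. The chaperone row is lowest on KO2 (−0.60), the sensor row is above 0 on WT2 and on all 3 arrays labelled Hspa4-/-, and the row of all 20239 genes stays between −0.03 and 0.01.

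Members with the ER stress element had a median difference of −0.20 on 6 arrays and −0.19 on 5 (8 genes, 6 and 5 of them below 0). The 24 members with a window but without the element had a median of −0.05 and −0.04. The 8 include Hspa5, Hsp90b1 and Canx, whose groups or means lay below wild type, as well as Calr, Derl3 and Syvn1, with differences of −0.02, 0.10 and 0.10. Of the 8, 5 are folding genes, as are 7 of the 24 without the element, so role and element are not separate here. Those 5 had a median of −0.27 on 6 arrays and −0.26 on 5, and those 7 had −0.11 and −0.09. The 4 members with the composite site of ATF4, 3 of them its targets, had a median of 0.05 on 6 arrays and 0.02 on 5. These medians describe the members, and no difference between the sets was tested.

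In the wider pathway 116 further genes of 124 listed were measured, and their median difference was −0.0087 on 6 arrays and 0.0011 on 5. None passed over all genes in either form (limma). At an unadjusted p under 0.05 on 6 arrays 14 of the 116 were lower and 9 higher (5.53% and 5.64% of all genes were), and on 5 arrays 14 and 13 (6.36% and 8.55% of all genes). Hspa13, a small Hsp70 relative of the ER, read 6.88, 6.999 and 6.98 against 7.46, 7.35 and 7.28. Its arrays were well apart and alike within each label (difference −0.41, SE 0.07; limma, adjusted p = 0.210; on 5 arrays −0.37, adjusted p = 0.0780).

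The membrane-bound disulfide isomerase gene Tmx1 stood at a difference of −0.44 (SE 0.10; limma, adjusted p = 0.213; on 5 arrays −0.50, adjusted p = 0.0780). The mannosidase gene Man1a stood at −0.32 (SE 0.07; limma, adjusted p = 0.213; on 5 arrays −0.33, adjusted p = 0.113). Sec63, which recruits BiP to the translocon, stood at −0.27 (SE 0.07; limma, adjusted p = 0.245; on 5 arrays −0.28, adjusted p = 0.158). The membrane ubiquitin ligase gene Marchf6 stood at −0.20 (SE 0.07; limma, adjusted p = 0.353; on 5 arrays −0.25, adjusted p = 0.160). Others stood above wild type. The signal peptidase subunit gene Spcs1 did so by 0.39 (SE 0.11; limma, adjusted p = 0.256; on 5 arrays 0.47, adjusted p = 0.116). The cell death gene Bak1, whose protein also acts at the ER, stood at 0.38 (SE 0.10; limma, adjusted p = 0.245; on 5 arrays 0.47, adjusted p = 0.0707). Eif4ebp1, an ATF4 target that restrains cap-dependent translation, differed by 0.53 (SE 0.14; limma, adjusted p = 0.245; on 5 arrays 0.64, adjusted p = 0.0877). The 25 measured genes of its list had a median of −0.0023. The wider lists of lumenal chaperones (13 genes) and of disulfide and prolyl isomerase enzymes (18 genes) had medians of −0.02 and −0.04, beside −0.23 in the folding members.

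**Figure D5:**
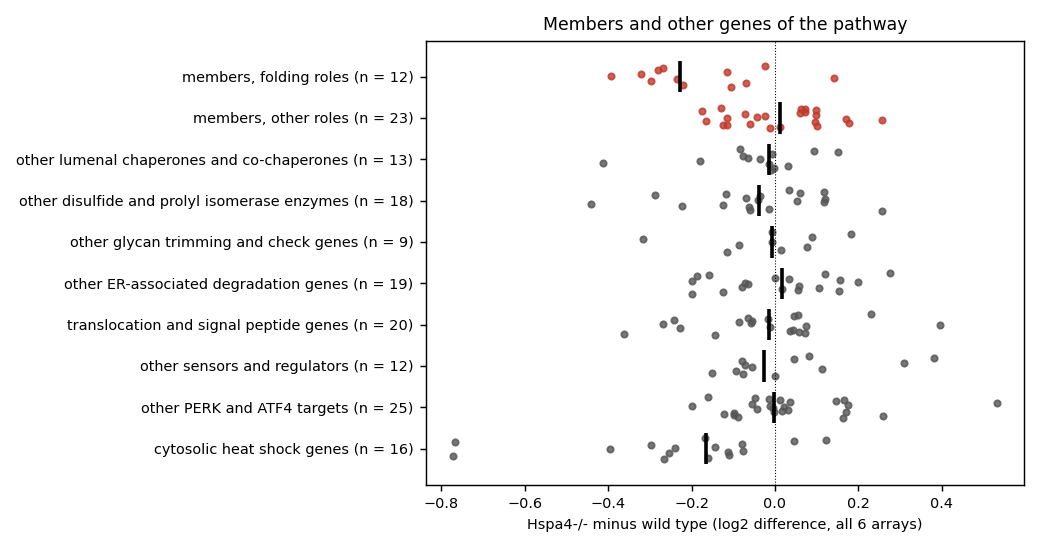
Log2 differences on all 6 arrays for the members (red), the wider pathway lists (grey) and cytosolic heat shock genes, with 1 point a gene, a dotted line at 0 and a bar at each list's median. Of the folding members (median −0.23) 11 of 12 lie left of 0, as do 14 of 16 cytosolic heat shock genes (median −0.16), and the wider lists have medians between −0.04 and 0.02.

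Cytosolic heat shock genes offered a set to hold beside the ER genes. Of 16 measured, 14 had a difference below 0 on 6 arrays, where 54.2% of all genes did, with a median of −0.16 on 6 arrays and −0.21 on 5. On 5 arrays 2 of them passed, where 0.44% of all genes did: Hsph1, a relative of Hspa4, at −0.996 (limma, adjusted p = 0.00334), and the Hsp90 co-chaperone gene Chordc1 at −0.82 (limma, adjusted p = 0.0127). By array the cytosolic set was lowest on KO3 (−0.25), where the folding genes of the ER were nearest to wild type.

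Marker sums of macrophages and of the atrial and skeletal muscle lists did not overlap between the labels. All 7 macrophage markers had differences below 0, where 54.2% of all genes did, with a median of −0.21. Their summed linear level was 1171.6 to 1294.9 on the arrays labelled Hspa4-/- and 1413.8 to 1491 in wild type. None of the 7 passed (limma) in either form. Summed atrial markers (5 genes) were 1214.5 to 3403.4 against 827.6 to 1058.2, but of the 5 only Nppa (1.80) did not overlap, and the other 4 differed by 0.03 to 0.23. Skeletal muscle markers (7 genes) summed to 1721.6 to 1804.2 against 1490.5 to 1603.2, and there only Ckm (0.24), which heart muscle also makes, did not overlap. The skeletal list had a median of −0.02, with 4 of 7 below 0. All 5 mesothelial markers had differences below 0, but on 6 arrays their sums overlapped (369.9 to 469.7 and 462.8 to 527.1). The overlap came from the array labelled KO1 (469.7), while KO2 and KO3 (375.4 and 369.9) lay below every wild-type array. Smooth muscle and pericyte sums (7 genes) overlapped on 6 arrays as well (4152.6 to 5916.1 and 4126.1 to 4810.8). There KO2 and KO3 (5369.1 and 5916.1) lay above every wild-type array. On 5 arrays Nppa and 2 mesothelial markers passed (limma). The part of these markers in the ER values was not tested. The summed linear level of fibroblast markers overlapped between the groups (3843.4 to 4390.8 and 3860.7 to 4175). Of the 7 fibroblast markers 4 had a difference above 0 on 6 arrays (median 0.01) and 6 on 5 arrays (median 0.11). Below 0 were 54.2% and 56.7% of all genes. On 6 arrays the fibroblast differences ran from −0.03 (Lum) to 0.27 (Col1a1; limma, adjusted p = 0.461). Sums of B and plasma cell markers overlapped too (346.3 to 390.6 and 367.1 to 391.3, 6 of 7 measured).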

How the data were processed

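The deposited values were log2 expression levels, 1 per probe set and array, made by the authors with affy in R 2.13.0, per the submitters' processing notes. Steps of background correction, normalization and summary were not given in the sources used here. Signal over background is unknown. Of 21225 probe sets, 20239 had 1 gene symbol and were all tested, with no filter on low values. The genotypes were compared with limma 3.58.1 in R 4.3.3 (lmFit, eBayes, Benjamini-Hochberg adjustment over all 20239 genes), on 6 arrays and on the 5 without the array labelled KO1. The code was tested on simulated data. Intervals are 95% and not adjusted for the number of genes. p-values measure the spread between these arrays only.

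The members and lists were chosen with earlier results of these data known. Named with every array were Hspa5, Hsp90b1, Calr, Canx, Xbp1, Atf4, Ddit3 and, in each role, the 2 genes with the smallest p in each form. Of the other lists, genes that passed were named, or else the 1 with the smallest p in each form. Other names were chosen after their values were seen, as was the pooling of roles into folding genes. Promoter windows are from RefSeq. Listed genes without a probe set of that name were not analysed here. Alternatives were filters on the lowest 25% or 50% of genes, quantile normalization, centring, array weights, another prior, a replicate block and leaving out each array. Sums of cell type markers are of 2 to the power of the log2 values. On 6 arrays these sums overlapped between the groups in the cardiomyocyte (9 genes), endothelial (6), smooth muscle (7) and T cell (6) lists. They also overlapped in the erythroid (3), adipocyte (5), mesothelial (5) and lung (5) lists. Without the array labelled KO1 the smooth muscle and mesothelial sums did not overlap.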

Additional observations from a re-analysis of the deposited data

How the results depend on the processing

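Over 7 model alternatives and each array left out, the 22 named members kept direction and side of the threshold in 279 of 286 comparisons on 6 arrays and 252 of 264 on 5. The exceptions were changes of sign, given below, and the Canx and Ero1a calls without WT2. The filters and the other prior leave each difference as it was, as does the replicate block on 6 arrays. Those comparisons could not change direction. In the main 6-array fit the members' adjusted p started at 0.276 (limma), so the side of the threshold was also unlikely to change. With an array left out, members called ranged from 0 to 0 on 6 arrays and 0 to 2 on 5. The member median ranged from −0.0816 to −0.0297 and from −0.0716 to −0.0355, and the folding median from −0.2773 to −0.1421 and from −0.3118 to −0.1136. Members without overlap ranged from 5 to 14 lower and 1 to 8 higher on 6 arrays, and from 7 to 15 lower and 3 to 10 higher on 5, where fewer arrays overlap less by construction. With only KO1 left out 5 were lower and 3 higher, where 18.9% and 14.4% of all genes were. With only KO2 left out 8 were lower and 1 higher, where 13% and 9.26% of all genes were. Shares over all genes are not given here for the upper ends, so those counts are not read as particular to the members. Other pathway genes called ranged from 0 to 1 and from 0 to 7, both highest without WT2, where 112 and 875 of all 20239 genes were called. Signs turned for Calr (−0.1252 to 0.0356 and −0.1258 to 0.1787), Xbp1 (−0.07 to 0.0765 and −0.1025 to 0.0608) and Atf4 (−0.0308 to 0.1621 and −0.1342 to 0.2515). On 5 arrays they also turned for Ssr1 (−0.2356 to 0.0141) and Herpud1 (−0.0881 to 0.6409). There, leaving out KO2 or KO3 left 1 array, assumed to vary like the other group.

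Quantile normalization gave 9 lower and 3 higher members without overlap on 6 arrays and 12 lower on 5. Array weights gave 2 other pathway genes called on 6 arrays and 4 on 5, where 115 and 321 of all genes were called, and Xbp1 at 0.0036 on 5. The cause was not tested. The replicate numbers did not pair the arrays (correlation of deviations −0.17, 0.09 and −0.25 for numbers 1 to 3). Between labels, arrays of unlike number correlated from −0.16 (KO1 and WT2) to 0.33 (KO1 and WT3), and why was not tested. With the replicate numbers as a block 0 members were called, and Atf4 was −0.0085 on 5 arrays. The planned pseudocounts were not run because the values are already log2.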

Other observations

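The ER stress element was also found in the promoters of 29 genes outside the 35, of which 13 were measured. Their median difference was −0.04 on 6 arrays, and 9 of the 13 were below 0, where 54.2% of all genes were. Dnajc3, a co-chaperone of BiP, differed by −0.18 on 6 arrays and −0.24 on 5, with overlapping groups on 6. Pan2, a subunit of an mRNA deadenylase, differed by 0.20 on 6 arrays and 0.17 on 5, with every array labelled Hspa4-/- above wild type. Alg12, a mannosyltransferase of glycan assembly, differed by −0.11, and the oxidase gene Ero1b by 0.03. These genes were singled out after their values were seen, and no test of the set was made.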
